A study of Mus musculus with 28 samples.

Results

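The G2 and mitosis genes described here are 50 genes whose products carry cells from the end of DNA synthesis through chromosome condensation, spindle attachment, segregation and cytokinesis. They were chosen by symbol, as the rows that bear these names among the 17690 gene rows of the tables, and all 50 were found. Each lay on the same chromosome in the tables and in the GENCODE M21 annotation of GRCm38. The study used SORT-seq on cells of the subependymal zone (SEZ), which lines the lateral ventricles of adult mice and makes new neurons, with sorted cells in single wells of a CEL-seq plate. Its question, as its title states it, was how Troy-positive brain stem cells pass through quiescence. There were 7 sorts of 4 libraries each, all from Bl/6 mice.

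Troy-GFP cells came from Troy-GFPiresCreER +/ki mice, in which a knock-in reports the gene of Troy, Tnfrsf19. Ki67-RFP cells came from Ki67-tagRFP ki/ki mice, in which both copies of Mki67 carry a red reporter, so that the sort itself selects cells making the Mki67 protein. Day-2 tdTomato and day-60 tdTomato cells came from Ki67-iresCreER +/ki, Rosa-tdTomato +/ki mice given 1 dose of 5 mg tamoxifen, which permanently marks cells expressing Mki67 and their progeny. They were taken 2 or 60 days later. GLAST/EGF cells were sorted with an antibody to GLAST and/or with fluorescent EGF, and Prom1/CD24 cells with antibodies to PROM1 and CD24, and for both the labels name no transgene. A mixed day-60 sort joined tdTomato cells of the SEZ or the olfactory bulb with cells bound by O4, an oligodendrocyte antibody. Its labels name Ki67-iresCreER, Rosa-tdTomato mice, 60 days after 1 dose of 5 mg tamoxifen. Mice were 8 to 10 weeks old, but 16 to 19 weeks for day-60 and 8 to 19 weeks for the mixed sort. The labels do not give the number of mice behind a library, so p-values may measure technical spread alone.

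Transcripts of this group are made late in the cell cycle. In cells that have left the cycle or not yet entered it, a repressor complex, DREAM, holds many of these genes off, and in G2 the factors B-Myb and FoxM1 drive them. Cdk1 with cyclins A and B starts mitosis, the Aurora and Polo kinases and the kinetochore proteins order it, and the anaphase-promoting complex ends it by destroying cyclins. In the adult SEZ, most stem cells are quiescent astrocyte-like cells, and division is concentrated in transit-amplifying progenitors and in the neuroblasts they form.

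Cells were wells with at least 1000 estimated transcripts: 1789 of 2688, with 11 to 89 cells and 43149 to 572793 transcripts per library. Levels are given as CPM, transcripts for each 1e+06 in a library, and since the protocol counts the 3′ end of each molecule they do not scale with gene length. Cell classes were rebuilt by clustering without 223 listed cell cycle genes and are named "-like", after marker transcripts. Some genes tied to division were not listed, among them Fam83d, Tcf19, Esco2 and Rad51ap1. Clusters may therefore still reflect cycle phase. NSC-like cells, which share the markers of quiescent neural stem cells and astrocytes, made up 64.9% ± 14.5 of Troy-GFP and 82% ± 2.60 of day-60 cells. Neuroblast-like cells were 70.1% ± 4.97 of the cells in Ki67-RFP and 87.7% ± 1.58 in day-2 (SD, n = 4 libraries). A cluster led by intestinal genes held 36 cells, 24 of them in library 2 of Troy-GFP and the rest in libraries 3 and 4 of GLAST/EGF. Y-linked transcripts (4 genes) summed to 381 to 407 CPM in Troy-GFP and 290.4 to 361 in GLAST/EGF and to 0 in every other library, so sex and sort cannot be told apart where either is compared with Ki67-RFP.

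Upstream sequences of members were examined for the letters that DREAM and its partners are known to use. These are the cell cycle genes homology region, CHR (TTTGAA or its variant TTCGAA), and the CCAAT box of the factor NF-Y, each searched on both strands. RefSeq windows of 300 bases, from 250 before to 50 after the start, were found for 45 of the 50 members. TTTGAA stood in 34 of the 45 (75.6%) against 20.2% of 27025 genes with a window, CCAAT in 35 (77.8%) against 41.1%, and TTTGAA together with CCAAT in 30 (66.7%) against 8.97%. TTCGAA stood in 4 members (8.89%) against 1.8% of genes. The windows of Birc5, Mad2l1, Nuf2, Nusap1, Tacc3 and Mxd3 held none of the 3. The lines that follow give the 150 bases before the start (GRCm38.p6, RefSeq, read along the gene) of 6 members with contrasting behaviour in the sorts, with the letters of the CHR and of the CCAAT box, on either strand, in capitals. Cdk1, Ccnb1 and Ube2c are core mitotic genes, Mki67 was lower in day-2 than in Ki67-RFP cells whereas Top2a did not pass that test, and Ckap5 passed neither test against Troy-GFP. The stretches are chr10:69352913-69353062, minus strand for Cdk1; chr13:100786487-100786636, minus strand for Ccnb1; chr2:164769779-164769928, plus strand for Ube2c. They are chr11:99024190-99024339, minus strand for Top2a, chr7:135716380-135716529, minus strand for Mki67 and chr2:91526612-91526761, plus strand for Ckap5.
Cdk1: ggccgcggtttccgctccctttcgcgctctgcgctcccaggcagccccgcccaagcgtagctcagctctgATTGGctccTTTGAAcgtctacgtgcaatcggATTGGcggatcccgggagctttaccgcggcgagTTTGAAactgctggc
Ccnb1: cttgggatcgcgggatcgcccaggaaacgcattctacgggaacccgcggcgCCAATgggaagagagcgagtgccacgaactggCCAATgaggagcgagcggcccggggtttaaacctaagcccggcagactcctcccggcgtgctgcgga
Ube2c: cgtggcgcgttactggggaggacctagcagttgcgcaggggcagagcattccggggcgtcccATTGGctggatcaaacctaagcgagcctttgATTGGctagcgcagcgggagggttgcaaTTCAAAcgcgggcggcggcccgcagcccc
Top2a: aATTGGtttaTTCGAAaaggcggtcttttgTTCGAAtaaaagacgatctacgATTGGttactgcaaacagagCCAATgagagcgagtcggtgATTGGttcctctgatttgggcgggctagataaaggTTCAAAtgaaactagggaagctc
Mki67: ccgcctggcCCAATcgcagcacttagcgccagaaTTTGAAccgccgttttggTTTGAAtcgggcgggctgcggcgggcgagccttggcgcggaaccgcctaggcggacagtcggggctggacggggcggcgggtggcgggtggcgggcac
Ckap5: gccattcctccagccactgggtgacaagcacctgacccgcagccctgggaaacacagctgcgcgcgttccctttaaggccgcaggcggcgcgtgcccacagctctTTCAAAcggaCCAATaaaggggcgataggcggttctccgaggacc
Cdk1 and Mki67 carry TTTGAA on the gene's strand, whereas Ube2c and Ckap5 carry it as TTCAAA. Ckap5 holds the same pair of letters as Cdk1 and Ube2c, whereas the stretch of the core gene Ccnb1 holds CCAAT without TTTGAA. A match of letters is a description and not a measured site.

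Summed over the 50 members, levels differed between the sorts. Ki67-RFP libraries held 12787, 14442, 11099 and 13825 CPM (mean 13038 ± 1462, SD, n = 4), and day-2 libraries 14516, 11804, 12263 and 9854 (12109 ± 1914). These 2 sorts overlapped. Prom1/CD24 libraries (7293, 12531, 5932 and 11434 CPM) spread widely, with 2 of them within the range of the day-2 libraries and the others below it. GLAST/EGF libraries (8472, 7175, 6512 and 5220) lay below all of Ki67-RFP and day-2, and Troy-GFP libraries (3458, 3473, 2264 and 3840.0) below all of GLAST/EGF. Day-60 libraries held 525, 530.1, 594 and 578 CPM and mixed day-60 libraries 961, 816, 777 and 1033, below every library of the other sorts. The median member stood at 203 CPM in Ki67-RFP, 207 in day-2, 140.3 in Prom1/CD24, 86.4 in GLAST/EGF, 39.1 in Troy-GFP, 2.05 in day-60 and 2.00 in the mixed sort. Of the 50 members, 25 had their highest mean in day-2, 23 in Ki67-RFP, 1 in Prom1/CD24 (Mxd3, a repressor of the Myc/Max network) and 1 in the mixed sort (Anln). In sums over cells, fewer cells of a type and less RNA per cell cannot be told apart.

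Transcripts of genes that pack and untangle chromosomes were the most abundant in Ki67-RFP. Hmgb2, a DNA-bending chromatin protein, reached 1514, 1604, 1508 and 1618 CPM in the 4 Ki67-RFP libraries, 1274, 1018, 1236 and 930.4 in day-2 and 376, 401, 293 and 453 in Troy-GFP. Ki67-RFP, day-2 and Troy-GFP libraries did not overlap for this gene. Top2a, the topoisomerase that decatenates sister chromatids, stood at 1019.9, 1088, 752 and 1238 CPM in Ki67-RFP, 1279, 1022, 985 and 959 in day-2, 795, 683, 307 and 536 in GLAST/EGF and 255, 348, 193 and 212 in Troy-GFP. For Top2a the Ki67-RFP and day-2 libraries overlapped. Mki67, which coats mitotic chromosomes (chr7:135689784-135716361, minus strand), stood at 602, 657, 546 and 722 in Ki67-RFP but 228, 249.8, 220.4 and 186 in day-2, within the Troy-GFP range (240.4, 202, 138 and 299.8). GLAST/EGF libraries held 683, 526, 459 and 434 CPM of Mki67. The condensin subunits Smc4 and Smc2 averaged 601 ± 123 and 316 ± 40.6 CPM in Ki67-RFP.

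Among the regulators, Cdk1, the kinase that triggers mitosis, stood at 277, 413, 182 and 336 CPM in Ki67-RFP, 604, 454, 448 and 342 in day-2, 201, 181, 63.1 and 123 in GLAST/EGF and 44.5, 71, 33.7 and 51.2 in Troy-GFP. Ccna2, its S and G2 phase cyclin, averaged 376 ± 60.4 in Ki67-RFP and 339 ± 32.9 in day-2. Ccnb1, the mitotic cyclin B1, gave 224, 251, 233 and 226 CPM in Ki67-RFP, 378, 319, 322 and 168 in day-2, 104, 78.9, 74.7 and 19 in GLAST/EGF and 16.6, 18.6, 21.6 and 32.4 in Troy-GFP. Library 4 was the lowest of its sort for Ccnb1 both in GLAST/EGF and in day-2. Ube2c, the ubiquitin-conjugating enzyme of the anaphase-promoting complex, gave 379, 497, 402 and 366 in Ki67-RFP, 718, 505, 529.9 and 339 in day-2 and 78.9, 42.9, 12 and 58.5 in Troy-GFP. Also among the 10 most abundant members, Cenpf, a kinetochore protein, averaged 389 CPM in Ki67-RFP, and Racgap1, which activates the cleavage furrow's GTPase switch, averaged 431.

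**Figure D1:**
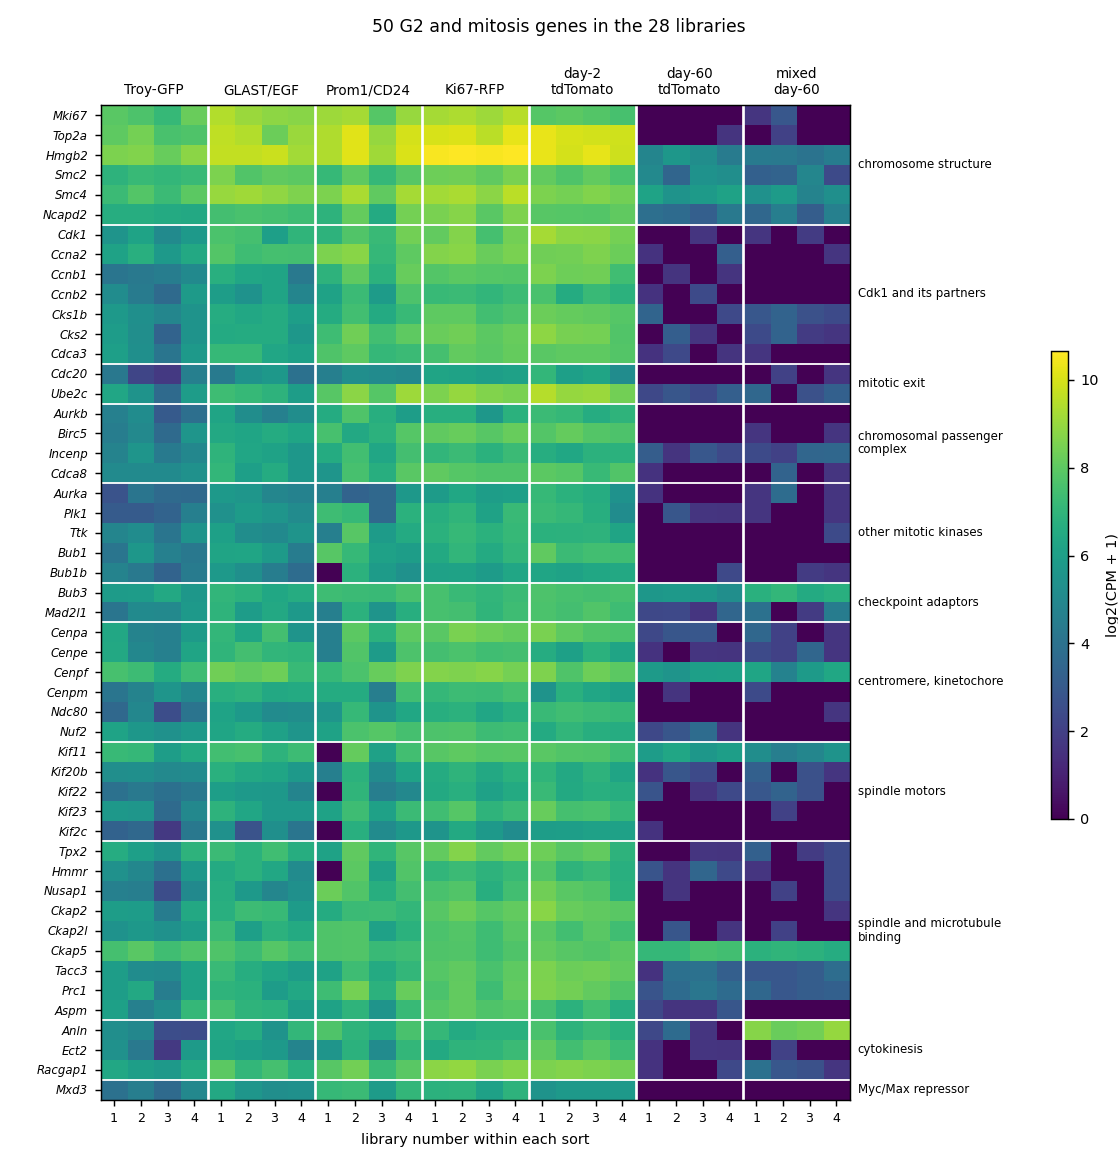
Level of each of the 50 members (rows, grouped by role) in each of the 28 libraries (columns, grouped by sort), as log2 of CPM plus 1. Members are high across Ki67-RFP and day-2 libraries. In the 4 day-60 libraries 41 of the 50 averaged below 10 CPM, with Kif11, Smc4, Cenpf, Bub3, Hmgb2 and Smc2 among those above. Ckap5 is at similar levels throughout, and Anln is high in the mixed day-60 sort.

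The same transcripts were spread over different shares of cells. After each cell was thinned to 1000 molecules, 5 or more of the 50 members were detected in 64.5%, 71.3%, 59.2% and 61.4% of cells in the Ki67-RFP libraries (202 of 315 cells). The shares were 38%, 29.5%, 37.5% and 29% in day-2 (74 of 220), 21.8%, 21.3%, 23.1% and 19.4% in GLAST/EGF (46 of 216) and 8.75%, 9.21%, 4.17% and 12% in Troy-GFP (27 of 311). No day-60 cell of 349 and no mixed day-60 cell of 314 reached 5, which leaves exact 95% upper bounds of 1.05% and 1.17%. Among NSC-like cells of all sorts, 2 of 594 reached 5 (0.337%), 1 in Troy-GFP and 1 in GLAST/EGF. Whether these cells were dividing was not tested. The libraries of these 5 sorts did not overlap in any of the 5 comparisons made between them, and each exact 2-sided permutation test gave p = 0.0286, the smallest that 4 against 4 libraries allow (adjusted over the 5, also 0.0286). The share was higher by 55.6 percentage points in Ki67-RFP than in Troy-GFP and by 12.8 in GLAST/EGF than in Troy-GFP. It was 30.6 points higher in Ki67-RFP than in day-2, 42.7 higher in Ki67-RFP than in GLAST/EGF and 33.5 higher in day-2 than in day-60. Without thinning the shares were 92% in Ki67-RFP, 49.3% in day-2, 57.2% in GLAST/EGF, 31.9% in Troy-GFP, 7.18% in day-60 and 11.2% in the mixed sort, so the order of day-2 and GLAST/EGF depended on depth.

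Day-2 and Ki67-RFP libraries therefore had overlapping sums with different shares of member-positive cells. In day-2, cells with 5 or more members held a median of 7254 transcripts and the others 3062, and the former supplied 50.6% ± 5.88 of all transcripts in a library. In Ki67-RFP the medians were 6941 and 4683, and such cells supplied 71.4% ± 5.94. Within these cells the members summed to 22377 ± 3898 CPM in day-2, 16989 ± 1243 in Ki67-RFP, 15734 ± 3011 in GLAST/EGF and 14294 ± 1707 in Troy-GFP. When every cell was given the same weight, the members summed to 12448 ± 1408 in Ki67-RFP on the same scale and 8257 ± 1823 in day-2, with 4638 ± 709 in GLAST/EGF, 2060 ± 511 in Troy-GFP and 653 ± 54 in day-60. In Troy-GFP, the 27 cells with 5 or more members gave 74.3% of all member transcripts of the sort's libraries on average, and the remaining cells stood at 944 CPM. The cells with 5 or more were chosen by the same members that were then summed in them. Their sums and the 74.3% follow in part from that choice.

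**Figure D2:**
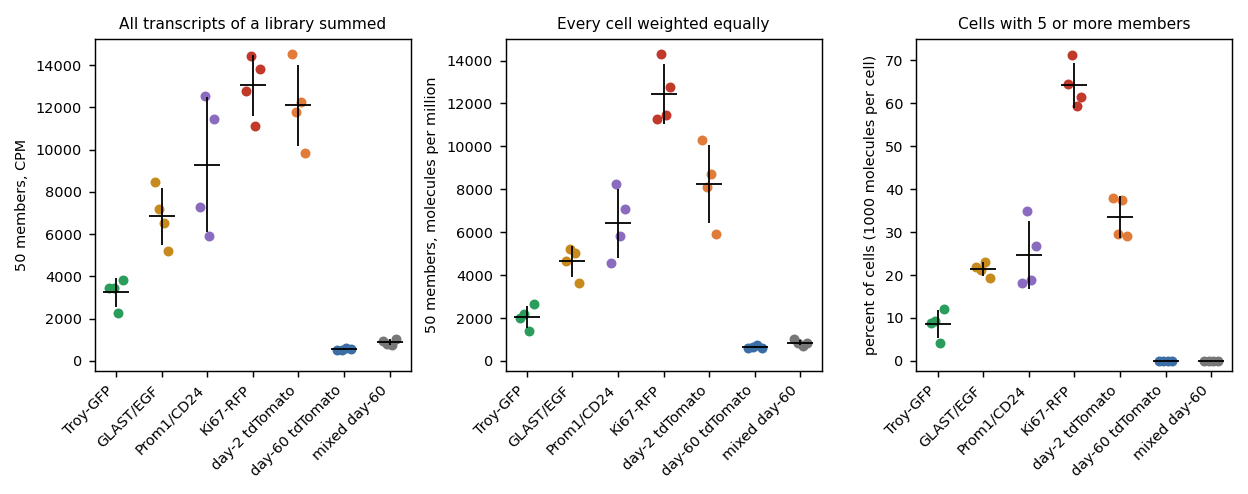
Left, summed level of the 50 members in CPM; middle, the same with every cell weighted equally; right, percent of cells with 5 or more members after thinning to 1000 molecules. Each point is a library, with the mean and SD of each sort as lines; Ki67-RFP and day-2 libraries overlap on the left and are apart on the right, at 59.2% to 71.3% and 29% to 38% of cells.

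Between Ki67-RFP and Troy-GFP cells, 49 of the 50 members were higher in Ki67-RFP and none was lower (limma voom, Benjamini-Hochberg adjusted p below 0.05), where 28.4% of the 8396 genes tested were higher and 31.2% lower. The median log2 fold was 2.16, against -0.02 over all genes. The 10 largest changes included genes of mitotic entry and exit. Ccnb1 rose by 3.29 ± 0.25 (adjusted p = 2.14e-11) on the log2 scale (estimate and standard error, n = 4 libraries in each group here and below). Birc5, the survivin subunit of the chromosomal passenger complex, stood at 262, 293, 238 and 286 CPM against 22.2, 31.6, 12 and 46.7 and rose by 3.22 ± 0.27 (adjusted p = 8.20e-11). Plk1, the Polo kinase, stood at 103, 126.5, 68.8 and 149.9 CPM against 7.37, 7.42, 9.58 and 23.1 and rose by 3.16 ± 0.46 (adjusted p = 1.35e-06). Both genes were higher in every Ki67-RFP library than in any Troy-GFP library. Ube2c rose by 3.14, the spindle protein Nusap1 by 2.97, the Cdk1 adaptor Cks2 by 2.96 and Cdc20, an activator of the anaphase-promoting complex, by 2.74. Anln, a scaffold of the cleavage furrow, rose by 2.69, the centromeric histone Cenpa by 2.68 and the kinetochore protein Ndc80 by 2.65.

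Mki67 itself rose by 1.44 ± 0.16 (adjusted p = 1.10e-08), less than the median member. Both copies of Mki67 carry a reporter in Ki67-RFP mice, and the labels name none in Troy-GFP mice. For this gene allele and sort cannot be told apart. The smallest passing folds belonged to the motor Kif11 (1.08), the condensin subunit Smc2 (1.09), the checkpoint adaptor Bub3 (1.21) and Cenpf (1.27). By role, median folds ran from 1.63 for chromosome structure (6 of 6 higher) and 1.73 for checkpoint adaptors (2 of 2) to 2.46 for cytokinesis (3 of 3) and 2.94 for mitotic exit (2 of 2). Ckap5, a microtubule polymerase of the spindle and of interphase microtubules, did not pass, at -0.12 ± 0.14 (adjusted p = 0.471). Of 77 other G2 and M genes tested, 72 were higher and 1 lower (Ccnf 3.64, Shcbp1 3.23 and Troap 3.14), and of 54 S phase genes 51 were higher and none lower (Dscc1 2.46, Rrm2 2.46 and Cdca7 2.23). In the same comparison the 24 NSC-like markers summed to 52452 to 55489 CPM in Troy-GFP and 2569 to 3666 in Ki67-RFP (24 of 24 lower). The neuroblast-like markers summed to 2367 to 3499 and 17498 to 20548 (23 of 23 tested higher). The part of this difference in cell classes was not tested here; within-class values follow below.

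GLAST/EGF cells lay between these sorts. Against Troy-GFP, 37 of the 47 members tested were higher and none was lower, where 14.9% of 7818 genes were higher and 15.5% lower, and Bub1b, Cdc20 and Kif2c fell below the filter. The median log2 fold was 1.06, against 0.02 over all genes. Plk1 stood at 40.8, 55.9, 45.8 and 33.8 CPM in GLAST/EGF and rose by 1.91 ± 0.42 (adjusted p = 1.78e-03). Anln rose by 2.27 ± 0.55 (adjusted p = 3.93e-03), with 79, 95.4, 43.5 and 132 CPM in GLAST/EGF and 37, 29.8, 4.79 and 4.61 in Troy-GFP. The centromere protein Cenpm rose by 1.76, Birc5 by 1.58, Ndc80 by 1.57, the Aurora A kinase Aurka by 1.56 and the kinetochore motor Cenpe by 1.43. The chromosome motor Kif22 (1.32), Ube2c (1.30) and Ccnb1 (1.29) completed the 10 with the largest change. Mki67 rose by 1.19 ± 0.19 (adjusted p = 5.96e-05). Aspm, a spindle pole protein, had a fold of 0.97 (adjusted p = 0.0564), Prc1, the midzone bundler, 0.60 (adjusted p = 0.149) and Kif11 0.50 (adjusted p = 0.102), and these did not pass, nor did Ckap5 (-0.14) and the kinetochore protein Nuf2 (0.25). Of the other G2 and M genes 34 of 59 were higher and 1 lower, led by Shcbp1 (2.28), Troap (2.15) and Cenpn (1.81). Of the S phase genes 48 of 54 were higher and none lower, led by Cdt1 (1.83), Rfc3 (1.82) and Ccne1 (1.81). The run code in the table names differed within both sorts: among the 2 libraries of each that share the commonest code 31 of 48 members were higher, and with the code as a term of the model 37. All 24 NSC-like markers were lower in GLAST/EGF and 14 of the 20 neuroblast-like markers tested higher, and their part in this difference was not tested.

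Against Ki67-RFP, 44 of the 50 members were lower in GLAST/EGF and none was higher, where 17.1% of 7798 genes were lower and 18.9% higher. The median log2 fold was -1.15. The 3 largest changes were in a cyclin B, a Cdk1 adaptor and a gene of mitotic exit: Ccnb1 fell by 2.03 ± 0.28 (adjusted p = 2.21e-06), Cks2 fell by 1.89 ± 0.19 (adjusted p = 1.41e-08) and Ube2c fell by 1.87 ± 0.20 (adjusted p = 4.68e-08). Nusap1 had a fold of -1.75, Birc5 -1.69, Cenpa -1.65, the cyclin Ccnb2 -1.59, the checkpoint kinase Ttk -1.52, the passenger subunit Cdca8 -1.52 and Racgap1 -1.44, all lower. Mki67 had a fold of -0.29 ± 0.13 (adjusted p = 0.0724) and did not pass. For Mki67 allele and sort again cannot be told apart, since the labels name no transgene for GLAST/EGF. The condensin genes Smc4 (-0.31 (adjusted p = 0.0798)) and Smc2 (-0.22 (adjusted p = 0.252)), the motor Kif20b (-0.40 (adjusted p = 0.126)), Anln (-0.42 (adjusted p = 0.169)) and Ckap5 (-0.05) did not pass either. Median folds by role were -0.61 for chromosome structure (3 of 6 lower), -0.88 for centromere and kinetochore (6 of 6), -1.41 for Cdk1 and its partners (7 of 7) and -1.56 for mitotic exit (2 of 2). Of 78 other G2 and M genes 55 were lower and none higher (Psrc1 -2.40, Cdc25c -2.0 and Ccnf -1.89), with a median of -0.91. Of 54 S phase genes 21 were lower and 1 higher (Rrm2 -1.0, Slbp -0.82 and Uhrf1 -0.80), with a median of -0.37. Among the libraries with the commonest run code (2 against 4), 28 of the 50 members were lower. The markers of NSC-like cells moved with this contrast (23 of 23 tested higher in GLAST/EGF), as did those of neuroblast-like cells (23 of 23 lower).

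**Figure D3:**
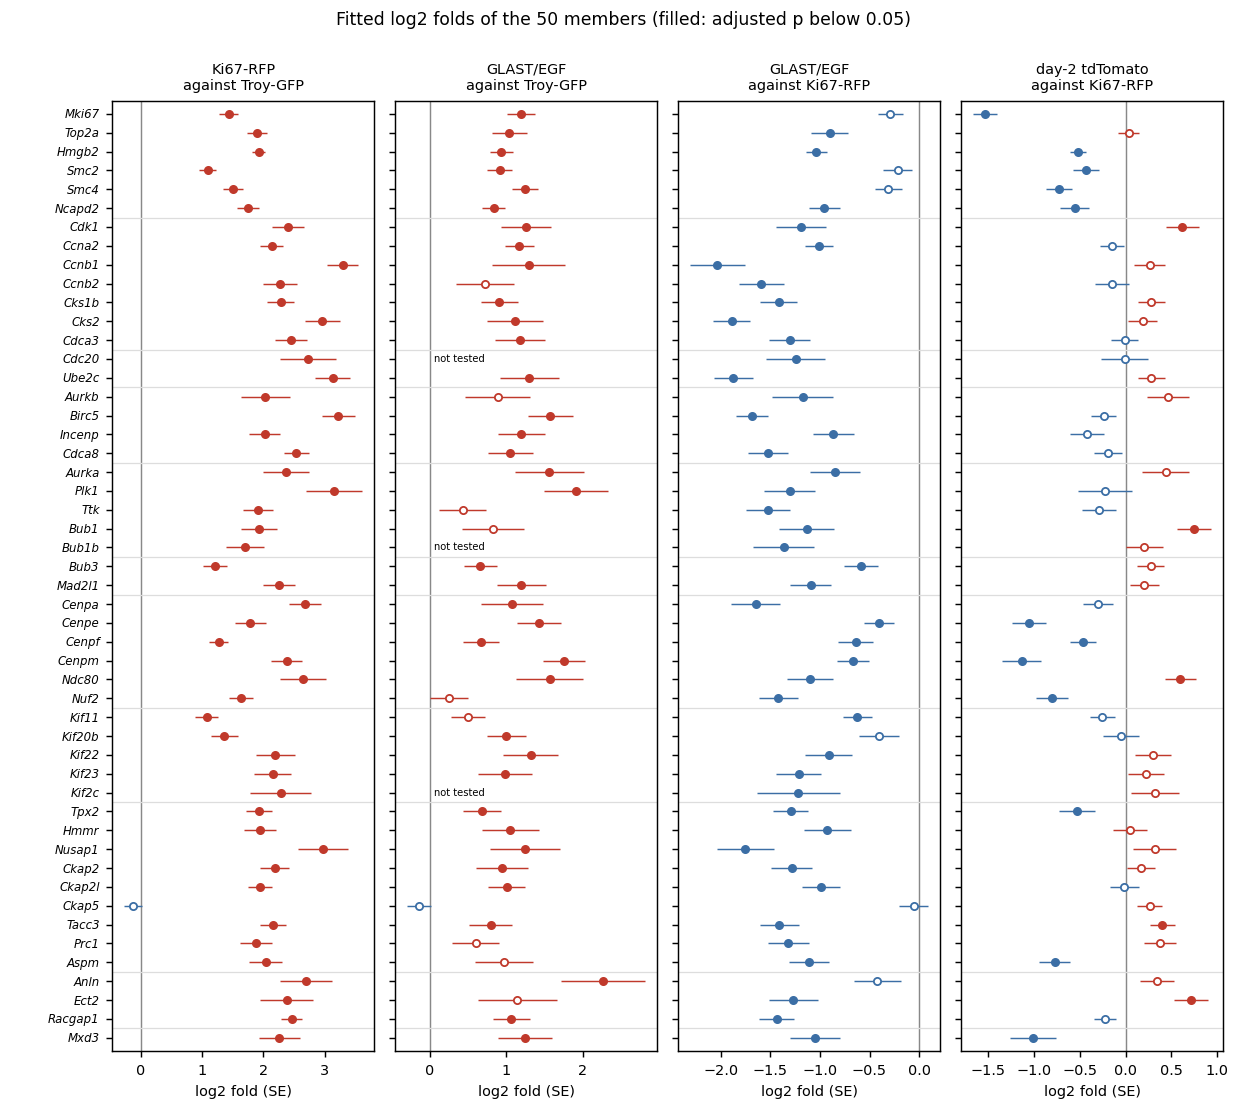
Fitted log2 fold (x axis) of each member with its standard error in 4 comparisons of sorts, red above 0 and blue below, in the order of the roles. Filled points passed at adjusted p below 0.05: 49 higher in Ki67-RFP against Troy-GFP, 37 higher in GLAST/EGF against Troy-GFP, 44 lower in GLAST/EGF against Ki67-RFP, and 12 lower and 5 higher in day-2 against Ki67-RFP.

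Day-2 tdTomato cells were labelled when they expressed Mki67, so comparing them with Ki67-RFP cells sets recently dividing cells and their progeny against cells now expressing Mki67. Members moved in both directions: 12 of 50 were lower in day-2 and 5 higher, where 14.2% of 6952 genes were lower and 14.3% higher, and the median log2 fold was -0.01. The share of members that were higher was thus below that of all genes, and the share that were lower above it, without a test of either. Mki67 had the largest change and fell by 1.53 ± 0.13 (adjusted p = 3.90e-09). All day-2 libraries were below all Ki67-RFP libraries for this gene. Mki67 carries a reporter on both alleles in the Ki67-RFP mice and a recombinase on 1 allele in the day-2 mice, so for this gene allele and sort cannot be told apart.

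Of the 11 other members lower in day-2, 8 belong to the kinetochore and to chromosome structure. Cenpm stood at 43.7, 108, 78.4 and 64.1 CPM in day-2 and 136, 156, 152 and 181 in Ki67-RFP and fell by 1.13 ± 0.21 (adjusted p = 2.78e-04). Cenpe stood at 95.4, 66.6, 111 and 74.8 and 179, 199, 166 and 176 CPM and fell by 1.05 ± 0.18 (adjusted p = 1.17e-04). Neither gene's libraries overlapped between the sorts. Mxd3 (43.7, 51.9, 51.3 and 53.5 CPM against 115, 119, 66.9 and 118) fell by 1.01 ± 0.25 (adjusted p = 3.82e-03). Nuf2 had a fold of -0.81, Aspm -0.77, Smc4 -0.73, the condensin subunit Ncapd2 -0.55, the spindle assembly factor Tpx2 -0.53, Hmgb2 -0.51, Cenpf -0.46 and Smc2 -0.43, all lower. Of the 6 chromosome structure genes 5 were therefore lower, and Top2a was the exception at 0.03 ± 0.12 (adjusted p = 0.868).

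Members higher in day-2 were Bub1, a spindle checkpoint kinase (268, 152, 173 and 168 CPM against 89.1, 128, 90.5 and 128; 0.75 ± 0.18 (adjusted p = 3.30e-03)), Ect2, which opens cytokinesis (0.72), Cdk1 (0.62), Ndc80 (0.60) and the spindle protein Tacc3 (0.40). The Bub1 libraries did not overlap, whereas those of Cdk1 overlapped, with the lowest day-2 library at 342 CPM and the highest Ki67-RFP library at 413. When each cell was thinned to 1000 molecules before summing, fewer members could be tested. Of the 29 then tested, 15 were lower and 0 higher, with Cdk1 at -0.06, Tacc3 at -0.30 and Top2a at -0.60 (adjusted p = 0.0164). Cdk1 and Tacc3 were thus no longer higher. For Bub1, Ect2 and Ndc80 no thinned fold is given here. Any of them outside the 29 was not tested at that depth, which is no evidence against its rise. The count of higher members was 3 without Ki67-RFP library 3 and 11 without day-2 library 4. Ube2c (0.28), Racgap1 (-0.22), Ccna2 (-0.15) and Cks2 (0.19) did not pass. Of 78 other G2 and M genes 14 were lower and 5 higher, led by the kinetochore scaffold Casc5 (-2.29), the condensin subunit Ncapg (-1.73) and the Cdk1 inhibitor kinase Wee1 (-1.27). Of 54 S phase genes 17 were lower and 6 higher, led by Chaf1b (-1.88), Rpa3 (1.30) and Pold1 (-1.21). Neuroblast-like markers moved with the contrast (15 of 23 higher and 2 lower in day-2).

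**Figure D4:**
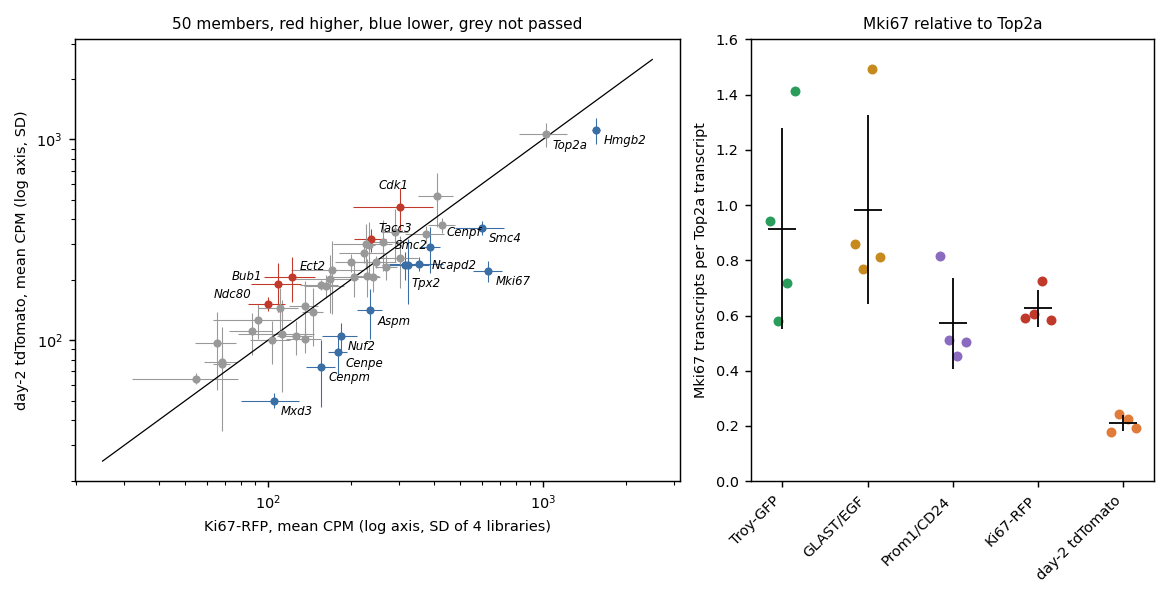
Left, mean CPM (log axes, bars SD of 4 libraries) of each member in Ki67-RFP and day-2 tdTomato libraries with the line of equality, red for the 5 members higher in day-2, blue for the 12 lower and grey for the rest. Right, the ratio of Mki67 to Top2a in each library with the mean and SD of 5 sorts, where all day-2 libraries lie below those of the other sorts.

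Detection of Mki67 was also counted cell by cell. Among thinned cells with 5 or more other members, Mki67 was detected in 24 of 73 day-2 cells (32.9%, exact 95% interval 22.3% to 44.9%) and in 112 of 199 Ki67-RFP cells (56.3%, 49.1% to 63.3%). Top2a was detected in 72.2% and 58.9% of such cells and Cdk1 in 59.5% and 31%. Counting uncertainty is the only error in these intervals, and cells of a library are not replicates. At full depth, among cells with 10 or more other members, Mki67 was found in 80.2% of day-2 and 84.5% of Ki67-RFP cells. The ratio of Mki67 to Top2a levels was 0.210 ± 0.030 in day-2 libraries, 0.590, 0.604, 0.726 and 0.584 in Ki67-RFP, 0.983 ± 0.342 in GLAST/EGF and 0.914 ± 0.365 in Troy-GFP. Mki67 alleles of day-2 and Ki67-RFP mice differ from each other and, per the labels, from those of the other sorts. Allele and sort cannot be told apart in these ratios.

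From day 2 to day 60, all 50 members fell, where 32.8% of 7648 genes were lower and 34.8% higher at day 60. The median fitted log2 fold was -5.80, or -5.68 with the 10 members at 0 in every day-60 library set to their bound. Top2a went from 1279, 1022, 985 and 959 CPM to 0, 0, 0 and 2.06, a fold of -9.41 ± 0.47 (adjusted p = 1.88e-11). Cdk1 had a fold of -8.19 ± 0.53 and Racgap1 -7.34 ± 0.47. Against a floor of 3 transcripts over the day-60 libraries, 1.53 CPM, Mki67 was at least 144-fold lower, the microtubule stabiliser Ckap2 at least 201-fold, Birc5 at least 152-fold, the midzone motor Kif23 at least 131-fold and Bub1 at least 124-fold. The bounds were 99.0-fold for Ndc80, 82.5-fold for the Aurora B kinase Aurkb, 68.1-fold for Ttk, 49.5-fold for Cdc20 and 32.6-fold for Mxd3. Of the 50 members 41 were below 10 CPM at day 60. Of the other G2 and M genes 64 of 70 were lower and 1 higher, with Pbk at 0 at day 60 and Spc25 at -6.97. Of the S phase genes 45 of 47 were lower and none higher, with Tk1 at 0, Rrm2 at -8.77 and Dtl at -6.38. Mice at day 60 were also older than those at day 2, and all 23 neuroblast-like markers tested were lower and all 23 NSC-like markers tested higher, so these differences cannot be told apart from time in sums over cells.

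At day 60, 40 of the 50 members were still detected in at least 1 library, 24 of them in at least 3 of the 4. Ckap5 (chr2:91526762-91620664, plus strand) stood at 138, 136, 187 and 169 CPM at day 60, 272, 238, 214 and 254 at day 2, 211, 216, 163 and 209 in Ki67-RFP and 183, 241, 168 and 208 in Troy-GFP. Its fall of 0.44 ± 0.16 (adjusted p = 0.0223) was the smallest of the 50. Kif11 averaged 61.9 ± 12.1 CPM at day 60, Smc4 60 ± 13.3, Cenpf 57.5 ± 9.52, Bub3 46.6 ± 6.41, Hmgb2 33.4 ± 12.4 and Smc2 30.4 ± 14.2. Their folds were -1.53 for Kif11, -2.40 for Smc4, -2.10 for Cenpf, -1.81 for Bub3, -4.88 for Hmgb2 and -2.89 for Smc2. The other 17 of these 24 members (Ncapd2, Cdca3, Ube2c, Incenp, Plk1, Mad2l1, Cenpa, Cenpe, Nuf2, Kif20b, Kif22, Hmmr, Tacc3, Prc1, Aspm, Anln and Ect2) averaged 1.54 to 13.3 CPM. The most members found in any single day-60 cell at full depth was 7, against 50 in Ki67-RFP, day-2, GLAST/EGF and Troy-GFP.

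Across cell classes, members were highest in progenitor-like and neuroblast-like cells, and this is a description, since clustering chose the cells. The 594 NSC-like cells summed to 704 CPM over the 50 members, the 232 progenitor-like cells to 9655 and the 463 neuroblast-like cells to 13880. With 5 or more members after thinning were 2 of 594 NSC-like cells, 119 of 230 progenitor-like cells (51.7%) and 238 of 463 neuroblast-like cells (51.4%). None of 142 oligodendrocyte-like, 79 mature neuron-like or 61 endothelial-like cells reached 5, while 3 of 57 microglia-like, 1 of 23 oligodendrocyte precursor-like and 1 of 10 ependymal-like cells did. Members summed to 1817 CPM in microglia-like, 1369.8 in oligodendrocyte precursor-like and 2998 in ependymal-like cells. Progenitor-like cells fell into a cluster of 170 cells with Hes6 and Dll1 among its leading genes (11177 CPM of members, 67.6% of cells with 5 or more) and one of 62 cells (2608 CPM, 6.67%). Neuroblast-like cells fell into a cluster of 192 cells led by Insm1 (15011 CPM, 72.9%), one of 101 cells (18851 CPM, 63.4%) and one of 170 cells led by Nrep and Stmn2 (6094 CPM, 20%). Among the 8 clusters of NSC-like, progenitor-like and neuroblast-like cells, 43 members had their highest level in the cluster of 101 cells and 7 in that of 192 (Top2a, Hmgb2, Smc4, Ccna2, Bub1, Cenpm and Nuf2). The leading genes of the former included Fam83d, and those of the latter Tcf19, Esco2 and Rad51ap1, all tied to division. Cycle phase may thus have helped to part these clusters, which was not tested. Ube2c stood at 967 CPM in the cluster of 101 against 462 in the cluster of 192 and 222 in the progenitor-like cluster of 170, Cenpa at 571, 269.5 and 213, and Aspm at 430.1, 210.4 and 185. Top2a (1290.0, 1412 and 882 CPM) and Mki67 (742, 703 and 695) differed less, and Cenpm was lowest of these 3 clusters in that of 101 (93.5, 177 and 146).

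**Figure D5:**
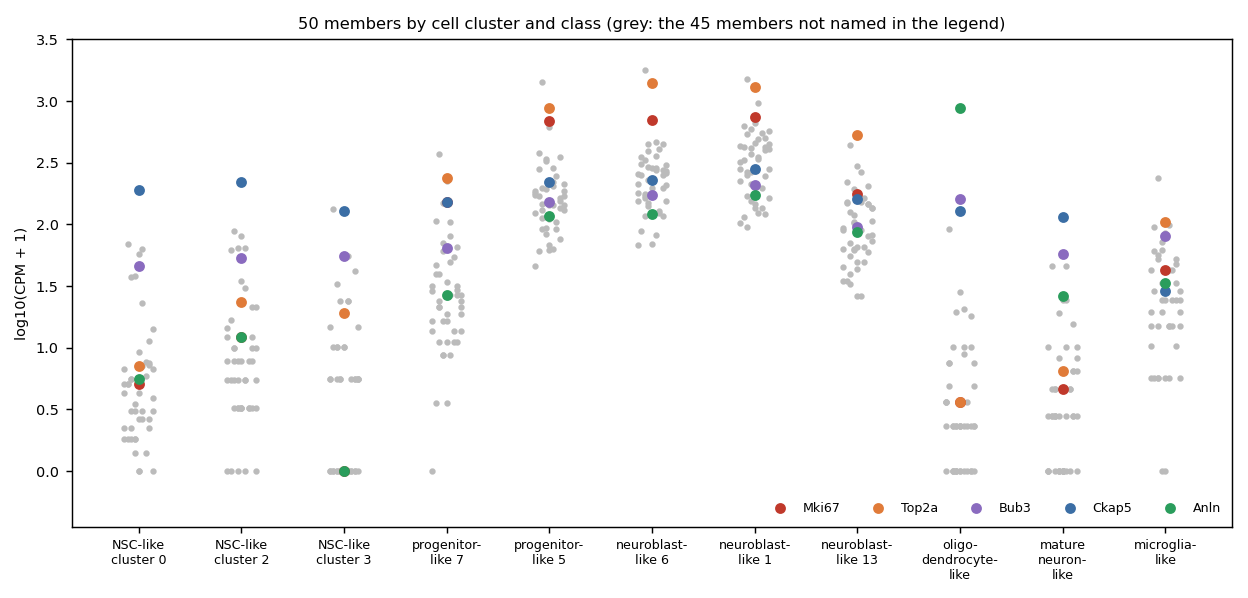
Level of each of the 50 members, as log10 of CPM plus 1, in 8 clusters of NSC-like, progenitor-like and neuroblast-like cells and in 3 other classes (x axis), 1 point per member with 5 members in colour. Members are high in a progenitor-like and 2 neuroblast-like clusters (5, 6 and 1), and 43 of the 50 have the highest of their 8 cluster levels in cluster 1, while Anln is highest in oligodendrocyte-like cells and Ckap5 stays among the highest in NSC-like cells.

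Within neuroblast-like cells, day-2 was compared with Ki67-RFP over 4 libraries each. Of the 50 members 15 were lower and 4 higher, where 14.4% of 5493 genes were lower and 13.3% higher, with a median log2 fold of -0.08. Mki67 stood at 238, 288, 236 and 191 CPM in day-2 neuroblast-like cells and 651, 753, 580.2 and 825 in those of Ki67-RFP. It fell by 1.62 ± 0.14 (adjusted p = 6.44e-12), and the libraries did not overlap. Allele and sort cannot be told apart for Mki67 within this class either. Top2a stood at 1227, 1223, 1135 and 995 and 1273, 1245, 902 and 1370.2, overlapping, with a fold of -0.11 (adjusted p = 0.396). Cenpm (-1.36), Mxd3 (-1.19), Cenpe (-1.05), Smc4 (-0.79), Aspm (-0.79), Nuf2 (-0.73), Ncapd2 (-0.65), the passenger scaffold Incenp (-0.56) and Hmgb2 (-0.49) were also lower. Of the 6 centromere and kinetochore genes 4 were lower, and of the 6 chromosome structure genes 5. Higher were Ect2 (0.70), Bub1 (0.65), Cdk1 (0.59) and Ckap5 (0.42). With the cell cycle genes kept among the genes clustered on, 21 members were lower and none higher.

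The class did not hold the same clusters in both sorts: 119 of 193 day-2 cells were in the cluster led by Nrep and Stmn2, and 118 of 221 Ki67-RFP cells in that led by Insm1. Members summed to 4326 CPM in day-2 cells of the former cluster against 10806 in Ki67-RFP cells, and to 18826 against 14260 in the latter cluster, the reverse order. Of 74 other G2 and M genes 16 were lower and 3 higher (Casc5 -2.24, Ncapg -1.61 and Pttg1 1.46). Of 50 S phase genes 15 were lower and 3 higher (among them Chaf1b -1.56 and Clspn -1.17). Progenitor-like cells of day-2 were too few for a fit, since no library held 5.

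Within progenitor-like cells, GLAST/EGF was compared with Ki67-RFP. Of 49 members tested 9 were lower and none higher, where 3.09% of 4660 genes were lower and 3.65% higher, with a median log2 fold of -0.51 against 0.00 over all genes. Ccnb2 had a fold of -1.29 ± 0.33 (adjusted p = 0.0223), Ccnb1 -1.29 ± 0.35 (adjusted p = 0.0328), Cenpa -1.27, Cks2 -1.24, Cdca8 -0.97, Birc5 -0.94, the Cdk1 adaptor Cks1b -0.79, Tpx2 -0.76 and Hmgb2 -0.71. Cyclin B and Cdk1 adaptor genes therefore made up 4 of the 9. Mki67, at 652 ± 205 CPM in GLAST/EGF and 520.1 ± 56.9 in Ki67-RFP, had a fold of 0.33 (adjusted p = 0.309), Top2a -0.33, Smc4 0.19, Cenpf -0.01 and Ckap5 -0.14, and these did not pass. As above, allele and sort cannot be told apart for Mki67. Summed members in progenitor-like cells came to 11054 ± 1341 CPM for Ki67-RFP, 8279.9 ± 2719 for GLAST/EGF and 8861 ± 1764 for Troy-GFP. The count of lower members was 3 without Ki67-RFP library 1, and 27 GLAST/EGF cells but 4 Ki67-RFP cells of the class lay in its less member-rich cluster. Of the other G2 and M genes 1 of 55 was lower (Foxm1 -1.04) and of the S phase genes 1 of 51 (Tipin -0.79), with none higher.

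In NSC-like cells, members summed to 777 ± 86.99 CPM for Troy-GFP, 954 ± 139 for GLAST/EGF and 583 ± 41.2 for day-60. Between GLAST/EGF and Troy-GFP only Ckap5 (0.07), Cenpf (0.29), Smc4 (0.72) and Kif11 (-0.12) had enough transcripts to be tested, and 0 of the 4 passed, where 0% of 3439 genes were higher and 0.0291% lower. A difference in the other 46 members was not detectable at this depth, although without the filter 3 of 49 were higher. Mki67 was at 0 in the NSC-like cells of all 4 day-60 libraries.

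Anln went against the other members in 1 cell class. It was highest in the mixed day-60 sort, at 418, 299.5, 332 and 506 CPM, above the 136, 91.5, 107 and 107 of Ki67-RFP and the 196, 119, 152 and 111 of day-2. In the other day-60 sort it stood at 3.94, 12.4, 2.12 and 0. Oligodendrocyte-like cells, 39.7% ± 3.44 of the mixed sort, held 886 CPM of Anln, found in 121 of 142 such cells at full depth (85.2%, exact 95% interval 78.3% to 90.6%), against 13 of 594 NSC-like cells (2.19%). In the 4 mixed libraries the oligodendrocyte-like cells held 905, 692, 748 and 1237 CPM. The median of the 49 other members in these cells was 1.31 CPM, and the next highest were Bub3 at 159.7, Ckap5 at 127 and Cenpf at 90.4. Oligodendrocyte markers summed to 41196 to 45929.5 CPM in the mixed sort, against 124 to 229.8 for Ki67-RFP and 121 to 204 for day-2, where 7 of the 14 were at 0. The gene lies at chr9:22332012-22389188 (GRCm38, minus strand), and its product, anillin, is known in myelinating cells as a scaffold of septin filaments as well as at the cleavage furrow.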

How the data were processed

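The deposited tables give, per the labels, SORT-seq libraries (CEL-seq in wells). The submitters' processing notes name BWA 0.6.2-r126 and the build mm10. Values deposited by the authors are estimated transcript molecules per gene and well, recorded here with the unit other: 4800995 of 4801006 values above 0 equalled, within 0.0001, the collision correction of a whole number of the 256 possible random barcodes. They are neither raw read counts nor scaled between wells. The 87 spike-in rows stayed out.

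Transcripts were summed per library over wells with at least 1000, kept for genes reaching the equivalent of 10 transcripts at median library size in as many libraries as the smaller group and 15 in all, scaled by trimmed mean of M values and tested with limma 3.58.1 voom in R 4.3.3. Adjusted p is Benjamini-Hochberg over all genes of a comparison, with a threshold of 0.05. limma voom was the planned main test, since the estimates need not be whole; count-model tests, planned as alternatives, were not run, since the format check could not read the tables as counts. In simulated day-2 and Ki67-RFP libraries (6963 genes), 78.5% of 200 genes changed 2-fold were recovered with 9 false calls. The changed genes were drawn from the more abundant genes, and all genes had the same dispersion. This rate is therefore not the power of the real comparison.

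Cells were clustered with scanpy 1.11.5 and igraph 0.11.9 (2000 variable genes without 223 cell cycle genes, 30 components, 15 neighbours, Leiden resolution 1.0, seed 7). A cluster took a class name when at least 3 of its markers were among its 50 leading genes outside the listed cell cycle genes, a ranking chosen after seeing the data. Within a class, libraries needed 5 cells. For shares of cells each cell was thinned to 1000 molecules. Wells held 1 sorted cell, so no doublet caller was used, and the same 96 well barcodes recur in every library by design. Shares were tested with exact permutation tests over libraries. Intervals are exact (Clopper-Pearson, 95%), and they and the floor of 3 transcripts cover counting error only.

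The members and lists were chosen with earlier results of these data known. Named in each comparison are Mki67, the 10 members with the largest change among those that passed, members passing against the main direction, up to 5 of the highest that did not pass and, per other list, the 3 with the largest change, of which a few are not reported here. In the levels, the 10 highest members and those found in at least 3 day-60 libraries are named. Others named, among them Ect2, Cdk1 and Bub3 where outside this rule and the single clusters, were chosen after their values were seen. Library numbers were not used to pair the samples: correlations of same-numbered deviations ran from -0.083 to 0.073. In day-60 against day-2 they ran from 0.027 to 0.073, and those of other numbers from -0.054 to 0.043. There 3 day-60 libraries correlated best with the day-2 library of their own number, against 0 to 2 in the other comparisons. Alternatives were another linear model, scaling, filter, cell minimum, depth, clustering, run code and each library left out.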

Additional observations from a re-analysis of the deposited data

Results flagged for a closer look

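Among 86 groups of 4 libraries examined for a value far from the other 3, 7 held one. For normally distributed values, chance flags about 1 in 20 groups. Top2a stood at 2.06 CPM in library 4 of day-60 tdTomato and at 3.19 CPM in library 2 of the mixed day-60 sort, with 0 in the other 3 libraries of each. Ccna2 stood at 2.15 CPM in library 4 of the mixed day-60 sort, with 0 in the others. A lone library above 0 is always flagged, so the rate of 1 in 20 does not apply to these groups of Top2a and Ccna2. Ckap5 stood at 163 CPM in library 3 of Ki67-RFP, against 209 to 216 in the others. The ratio of Mki67 to Top2a was 1.49 in library 3 of GLAST/EGF (others 0.770 to 0.860), 0.816 in library 1 of Prom1/CD24 (others 0.455 to 0.513) and 0.726 in library 3 of Ki67-RFP (others 0.584 to 0.604).

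In the mixed day-60 sort, which enters no comparison of the members, Anln averaged 389 CPM. Its lowest library there, at 299.5, was above the highest library of any other sort, at 210.0.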

How the results depend on the processing

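Thinning each cell to 1000 molecules left fewer members to test: 29 of 30 were higher in Ki67-RFP than in Troy-GFP, 0 of 29 higher in day-2 than in Ki67-RFP, 14 of 15 lower at day 60 than at day 2, 4 of 6 higher in GLAST/EGF than in Troy-GFP and 22 of 26 lower in GLAST/EGF than in Ki67-RFP. With the commonest run code only, 28 were lower in GLAST/EGF than in Ki67-RFP. With cell cycle genes kept in the clustering, 0 were higher in day-2 neuroblast-like cells, and without a filter 3 of 49 were higher in GLAST/EGF NSC-like cells than in those of Troy-GFP. Leaving out 1 library gave 26 to 42 members higher in GLAST/EGF than in Troy-GFP and 3 to 11 higher in day-2 than in Ki67-RFP. In progenitor-like cells of GLAST/EGF it gave 0 to 1 higher and 3 to 8 lower. Shares of cells with 5 or more members differed by 53.2 to 57.2 points (Ki67-RFP against Troy-GFP), -32.2 to -28.2 (day-2 against Ki67-RFP), -35.0 to -32.0 (day-60 against day-2), 11.4 to 14 (GLAST/EGF against Troy-GFP) and -44.3 to -40.3 (GLAST/EGF against Ki67-RFP), where the smallest exact permutation p is 0.0571. With the library number as a replicate block the differences were 55.6, -30.6, -33.5, 12.8 and -42.7, and the smallest exact sign-flip permutation p is 0.125. The block changed no count of calls by more than 1 (38 against 37 members higher in GLAST/EGF than in Troy-GFP).

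Of 1630 log2 folds of named members under an alternative, 1517 kept direction and side of the threshold, 64 lost it, 22 gained it and 27 turned direction, and the cause was not tested. In day-2 against Ki67-RFP, thinning gave Cdk1 -0.061, Tacc3 -0.30, Top2a -0.60, Ube2c -0.85 and Cks2 -0.69. In neuroblast-like cells, cell cycle genes in the clustering gave Ube2c -0.75, Cks2 -0.33 and Tacc3 -0.14. Ckap5 was 0.16 with thinning in GLAST/EGF against Ki67-RFP and -0.038 with no filter in NSC-like cells, where Kif11 was 0.0031 with limma-trend, and Cenpf was 0.047 with the replicate block in progenitor-like cells. Other turns came from leaving out 1 library: Ckap5 ran from -0.18 to 0.0069 (Ki67-RFP against Troy-GFP) and from -0.17 to 0.016 (GLAST/EGF against Ki67-RFP), Top2a from -0.12 to 0.13 (day-2 against Ki67-RFP) and Ube2c from -0.0078 to 0.32 (neuroblast-like). In progenitor-like cells Top2a ran from -0.67 to 0.21, Smc4 from -0.046 to 0.36 and Cenpf from -0.22 to 0.32, and in NSC-like cells Ckap5 from -0.094 to 0.18, Cenpf from -0.15 to 0.55 and Kif11 from -0.51 to 0.34. Of these members, Top2a and Ube2c under thinning and Ube2c under the other clustering passed the threshold in the turned direction. The alternatives edgeR and DESeq2 were not run, and progenitor-like cells of day-2 could not be fitted, with 0 libraries holding 5. Depth limits what NSC-like cells can show, with 4 members tested.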
